A study of Ipomoea batatas with 12 samples.

Results

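Skin and flesh of the storage root were compared within the wild-type sweetpotato line M1-125 (Ipomoea batatas, WT), on 6 of the 12 RNA-seq libraries of the series, 3 from skin and 3 from flesh. Members were chosen by their labelled line and tissue alone, not by any measured value. Roots were grown on an experimental farm and taken 120 days after planting, under a treatment labelled normal, with no transgene or agent named for any group. The other 6 libraries came from skin and flesh of a natural mutant of this line (MT), grown and sampled alike. Below they serve as samples outside the comparison and enter the tests over both lines. They also enter the choice of a common depth and a scaling of the libraries, where this is said. The labels speak of biological replicates without saying whether each is a separate plant, so a p-value here measures no more than the spread among these libraries, which may be technical. The series was made to look for regulators of skin colour; how skin and flesh of the WT line differ over the whole profile is described below.

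The skin of a storage root is largely periderm, a protective layer whose outer cells become corky through deposits of suberin and lignin, and which carries the pigments that give the root its colour. The flesh is mostly storage parenchyma, which fills with starch and with the storage proteins sporamin and beta-amylase. Sweetpotato is a hexaploid, so a gene can be present as several nearly identical copies on different haplotypes. The deposited table gives an identifier and a length for each gene but no name, and 0 identifiers matched the available RefSeq gene table, so the tissues could not be checked against their marker genes and no function is assigned to any gene here. Identifiers hold a number, read here as the chromosome, a letter from A to F, read as the haplotype, and a running number; this reading is an assumption. How reads were divided among copies is not given in the sources used here, so values of single identifiers, and numbers of genes detected, are uncertain to that extent.

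The tables hold 225111 genes, of which 82396 had no count in any WT library. Totals were 17197979, 20276417 and 18722476 counts in the WT flesh libraries and 10135802, 15065079 and 9620235 in the WT skin libraries, so every skin library was shallower than every flesh library. Within a tissue, Pearson correlations of log2(CPM + 1) across the tested genes ran from 0.951 to 0.957 between skin libraries and from 0.967 to 0.970 between flesh libraries, where CPM is the count scaled to a common library size. Between the mean skin and the mean flesh profile the same correlation was 0.631. Genes are not independent replicates, so these values only describe the libraries.

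Counts were concentrated in fewer genes in skin than in flesh. In each library the 10 leading genes together took 6.15%, 6.24% and 6.37% of counts in WT skin and 3.08%, 3.01% and 2.97% in WT flesh. All 3 skin libraries lay above all 3 flesh libraries, and the mean share was 2.07 times as large in skin. The most abundant gene alone took 1.87% ± 0.0372 of skin counts and 0.654% ± 0.078 of flesh counts (SD, n = 3), the 100 most abundant 14.3% ± 0.226 and 10.2% ± 0.0584, and the 1000 most abundant 34.5% ± 0.369 and 27.9% ± 0.0918. The gap between the tissues thus grew in absolute terms from 1.21 to 6.61 percentage points as the list lengthened, while its ratio shrank from 2.85 to 1.24.

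The same ordering held for measures over the whole profile. In the skin libraries 2984, 2935 and 2837 genes held 50% of the counts, against 4192, 4157 and 4196 genes in flesh, without overlap between the tissues. For 90% of the counts the numbers were 26829 ± 645 genes in skin and 28849 ± 71.6 in flesh. The effective number of genes, the exponential of the Shannon entropy of the count shares, was 15005 ± 380 in skin and 20591 ± 91.2 in flesh (SD, n = 3). A smaller value means that counts were spread over fewer genes, and here flesh exceeded skin 1.37-fold.

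**Figure D1:**
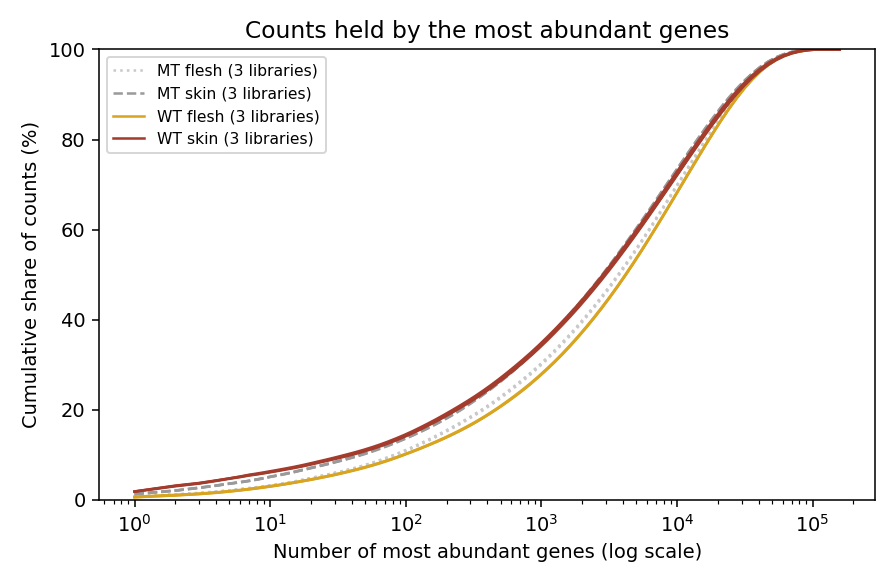
Cumulative share of counts (%, vertical axis) held by the genes that lead a library, against the number of genes (log scale), with a line for each of the 12 libraries. The 3 WT skin lines run above the 3 WT flesh lines from the first gene to rank 41279, beyond which the line of skin replicate 2 meets and then falls below the flesh lines; the shares are 6.25% against 3.02% on average for 10 genes and 34.5% against 27.9% for 1000 genes.

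With 3 libraries against 3 the two-sided exact permutation test cannot go below p = 0.1, and all 7 concentration measures reached that value in WT (0.109 adjusted by Benjamini-Hochberg over 12 measures of each library). When tissue was permuted within each line over all 12 libraries, the exact permutation p was 0.005 for each of the 7, the smallest that 400 arrangements give, or 0.00545 adjusted. In the MT libraries the direction was the same for each of these measures, with 5.14% ± 0.0425 of skin counts and 3.21% ± 0.0257 of flesh counts in the 10 most abundant genes (SD, n = 3). Shares of counts also depend on gene length; on TPM, which divides by length before scaling every library to the same total, the share of the 10 leading genes was 8.82% ± 0.15 in WT skin and 3.92% ± 0.167 in WT flesh. For the single most abundant gene the gap was smaller on TPM, at 1.80% ± 0.0343 against 1.34% ± 0.151.

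The gene that led the skin libraries was Ibat.Brg_v3.06CG006510, with a length of 1472 bases. It had 185063, 286041 and 180384 counts in the WT skin libraries and 2, 0 and 10 counts in the WT flesh libraries. It therefore ranked first in skin both by CPM and by TPM and was close to absent from flesh. Scaled by TMM, which estimates library sizes from the bulk of the genes, its level was 21108 CPM ± 471 in skin and 0.192 CPM ± 0.249 in flesh (SD, n = 3). By edgeR's quasi-likelihood test its log2 difference was 16.71 (SE 0.29, adjusted p = 7.1e-10). The size of this difference rests on 12 flesh counts and was 18.50 without flesh replicate 3 and 16.06 without flesh replicate 2.

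The next gene in skin was Ibat.Brg_v3.06DG005030, of 1414 bases, which shares the number 06 with the leading gene. Its counts were 123459, 193988 and 120367 in WT skin and 28, 36 and 38 in WT flesh. That is 1.25% ± 0.0348 of all skin counts (SD, n = 3), and the skin and flesh libraries lay far apart. Its level was 14162 CPM ± 406 in skin and 1.60 CPM ± 0.186 in flesh, a log2 difference of 13.10 (SE 0.09, edgeR adjusted p = 1.4e-11). Whether the pair are copies of a single gene cannot be read from the identifiers. In the MT libraries 06CG006510 stood at 14775 CPM ± 116 in skin and 0.223 CPM ± 0.0233 in flesh, and 06DG005030 at 8435 CPM ± 83.7 and 1.90 CPM ± 0.414. These MT levels use TMM factors from the MT libraries alone and the WT levels use those of the WT libraries. The levels of the lines are therefore not on a common scale.

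The leading genes of flesh were lower and less restricted to their tissue. The rule used here takes the most abundant genes that passed the test as higher in flesh and whose libraries did not overlap. These were Ibat.Brg_v3.09DG001600 (2285 bases) and Ibat.Brg_v3.01BG002710 (1520 bases), at ranks 2 and 3 of flesh by CPM and 6 and 5 by TPM. The most abundant gene of flesh, at 6542 CPM by library totals, did not meet this rule. Of the 10 genes with the highest mean CPM in flesh, 7 passed the test as higher in flesh. Another 1 passed as higher in skin and 2 did not pass. Of the 10 in skin, 9 passed as higher in skin and 1 did not pass. For 09DG001600 the libraries had 68587, 79242 and 77414 counts in WT flesh and 137, 225 and 125 in WT skin. Its level was 3546 CPM ± 103 in flesh and 15.6 CPM ± 1.08 in skin (SD, n = 3), 227-fold apart, with a log2 difference of -7.82 for skin minus flesh (SE 0.07, edgeR adjusted p = 9.2e-11). For 01BG002710 the counts were 48671, 62149 and 57067 in WT flesh and 3695, 6842 and 3823 in WT skin. It was thus abundant in both tissues, at 2637 CPM ± 133 in flesh and 458 CPM ± 50.9 in skin, and 5.75-fold higher in flesh (log2 difference -2.52, SE 0.08, edgeR adjusted p = 2.1e-08).

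The lists of leading genes differed between the tissues far more than between the lines. Of the 10 genes with the highest mean CPM in WT skin, 1 was among the 10 of WT flesh, and of the lists of 100 and of 1000 genes 23 and 327 were shared. By contrast, WT skin shared 10 of 10, 82 of 100 and 850 of 1000 with MT skin, and WT flesh shared 8, 76 and 843 with MT flesh. Of the 100 leading skin genes, 46 stood in flesh below 10% of their skin level, 23 were within 2-fold and 6 had no count in flesh. Of the 100 leading flesh genes, 19 stood in skin below 10% of their flesh level, 31 were within 2-fold and 0 were without counts in skin. As a set, the 100 skin genes held 14.3% ± 0.229 of skin counts and 4.04% ± 0.0808 of flesh counts, while the 100 flesh genes held 10.2% ± 0.0577 of flesh counts and 4.25% ± 0.0479 of skin counts (SD, n = 3). These lists were picked by their levels in the same libraries, so the values are a description.

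At equal depth the number of genes with at least 1 count overlapped between the tissues, whereas the number with at least 10 counts did not. At their own depths 109154 ± 804 genes had at least 1 count in flesh and 102506 ± 5715 in skin (SD, n = 3). The counts of each library were then reduced to 8507461, the size of the shallowest of the 12, by the hypergeometric expectation. This left 101160, 100940 and 101106 genes in the flesh libraries and 98587, 103208 and 97407 in the skin libraries. Skin replicate 2, which was also the deepest skin library, lay above all flesh libraries and the other skin libraries lay below them (exact permutation test in WT, p = 0.4). When tissue was permuted within each line over all 12 libraries, the exact permutation p was 0.02, also after adjustment. That test averages the lines, and the difference was larger in MT, with a mean of skin minus flesh of -7546 genes. In WT the mean of skin minus flesh was -1335 genes, and -761, -3072 and -171 without skin replicate 1, 2 and 3. With at least 10 counts at the common depth, 56455, 57158 and 55386 genes were left in the skin libraries and 57810, 57531 and 57672 in the flesh libraries, so all skin libraries lay below all flesh libraries. For genes with at least 1 count in MT the skin libraries all lay below the flesh libraries, with 92963 ± 1032 against 100509 ± 390 genes.

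**Figure D2:**
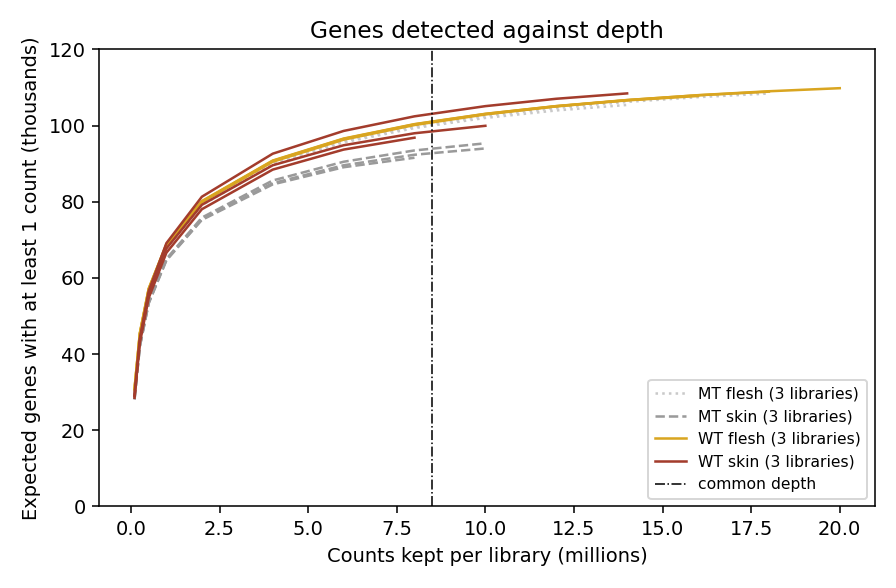
Expected number of genes with at least 1 count (vertical axis, in units of 1000 genes) when each library is reduced to a given number of counts, with a line for each of the 12 libraries. At the common depth of 8507461 counts the WT flesh lines meet near 101069 genes while the WT skin lines spread from 97407 to 103208.

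Which tissue had more genes above a given level depended on how the libraries were scaled. With library totals, 17991, 17865 and 17716 genes reached 10 CPM in the skin libraries and 20332, 20244 and 20267 in the flesh libraries, so all flesh libraries had more. With TMM scaling, here with factors from all 12 libraries, the order was the opposite, at 19173 ± 20 genes in skin and 18096 ± 85 in flesh (SD, n = 3). At 1 CPM the means were 58065 in skin and 59523 in flesh by totals, and 60204 and 57246 by TMM. At 100 CPM skin had more by either scaling, with 1357 ± 12.7 against 1305 ± 5.57 genes by totals and 1527 ± 21.5 against 1037 ± 15.6 by TMM, but on TPM the numbers were 1311 ± 11 and 1316 ± 15.4. At 1000 CPM skin had more by totals, by TMM and on TPM, with 32, 31 and 34 genes in its libraries against 29, 28 and 27 in flesh by totals.

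The share of genes that reached a given level per length in both tissues fell as the level rose. Of genes at 1 TPM or more, 59662 in skin and 62084 in flesh, 48550 were shared, which is 81.4% of the skin set and 78.2% of the flesh set. At 100 TPM there were 1305 genes in skin and 1310 in flesh, with 571 shared (43.8% and 43.6%), and at 1000 TPM 49 and 42, with 13 shared (26.5% and 31.0%). Of the 1305 skin genes at 100 TPM or more, 152 were under 1 TPM in flesh, whereas 28 of the 1310 flesh genes were under 1 TPM in skin. Among genes at 1000 TPM or more the corresponding numbers were 11 of 49 and 0 of 42.

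**Figure D3:**
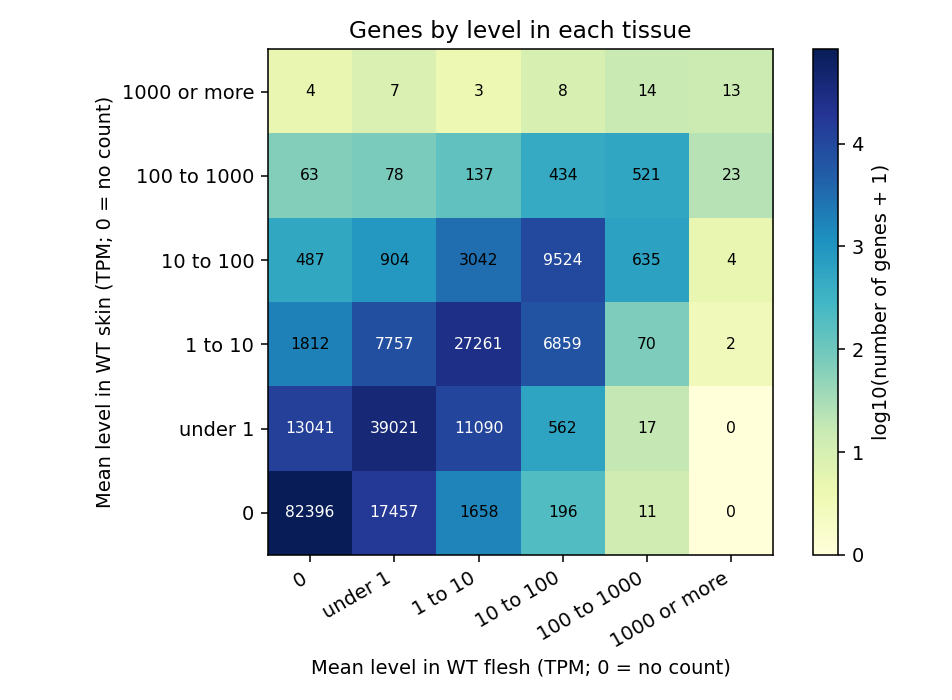
Number of genes in each combination of mean level in WT skin (rows) and WT flesh (columns), in TPM classes, where 0 means no count in any of the 3 libraries; colour is log10 of the number plus 1. The top row shows 4 genes at 1000 TPM or more in skin with no count in flesh, and the right column has 0 genes of that level in flesh with no count in skin.

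The test of skin against flesh was run on the 73114 genes that passed the low-count filter, which held at least 98.6% of the counts of each WT library. At a Benjamini-Hochberg adjusted p of 0.05 in edgeR's quasi-likelihood test, 53.5% of them differed, 27.5% higher in skin (20105 genes) and 26% higher in flesh (18998 genes). Thus 51.4% of the differing genes were higher in skin. With library totals in place of TMM this share was 38.0%, from 16019 and 26181 genes, and the median log2 difference of all tested genes moved from -0.03 to -0.38, so the balance of directions rests on the scaling. All 3 skin libraries lay above all 3 flesh libraries in 30.8% of tested genes, and below them in 31.4%. The filter kept 9290 genes that reached the minimum in all skin libraries but not in all flesh libraries, and 12628 the other way round. These passed the filter through the tissue where they were high, so their calls are given as no separate result. Genes of this kind are still part of the abundance classes, the counts and medians by fold, the shares and the neighbour classes below. They are also part of the recurrence in MT, the lengths and the identifier calls. At least 16-fold apart, 1866 of 5344 skin genes had no count in flesh and 929 of 2450 flesh genes had none in skin. Over all folds, the genes with no count in the other tissue were 1866 and 1438. The floor set for such genes, explained below, therefore enters the choice of the 16-fold classes. Among the 47367 genes at the minimum in both tissues, 51.1% differed, 12005 higher in skin and 12180 higher in flesh.

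With TMM scaling, differing genes became more frequent with abundance. Sorted by the mean TPM of the tissues, 40.4% of the 11929 tested genes under 1 TPM differed, 49.9% of 42977 between 1 and 10, 69.3% of 16914 between 10 and 100, 86.7% of 1251 between 100 and 1000, and 41 of 43 at 1000 or more. Up to 100 TPM the calls were divided about evenly, with 51.4%, 51.0% and 51.4% of them higher in skin. Above that the division moved towards skin, with 634 against 451 genes between 100 and 1000 TPM (58.4%) and 30 against 11 at 1000 or more (73.2%). With library totals the shares were 40.3%, 37.5%, 37.1%, 46.7% and 62.9% from the lowest class to the highest, so the upward step at high abundance was present under both scalings, while only the highest class leaned to skin by totals. The 43 genes at 1000 TPM or more held 13.7% ± 0.26 of the TPM of skin and 6.66% ± 0.196 of that of flesh (SD, n = 3). The share that differed was 88.6% between 100 and 1000 TPM and 81.4% at 1000 or more by library totals, so there the highest class stood below the one before it. The share of tested genes that differed at least 4-fold did not rise steadily with abundance, at 31.2%, 23.9%, 21.4%, 33.4% and 55.8% from the lowest class to the highest. The power of the test also rises with counts, and its part in this trend was not tested.

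With TMM scaling, differences were larger on the skin side. The median ratio of means was then 4.47-fold for genes higher in skin and 2.99-fold for genes higher in flesh. Library totals moved the median log2 difference of all tested genes from -0.03 to -0.38, towards flesh. The median ratios were not computed by totals. At least 4-fold apart were 10752 skin and 7302 flesh genes, though 9253 and 9349 with library totals, which turns that order around. At least 16-fold apart were 5344 and 2450 genes, and at least 64-fold 2415 and 627, with skin ahead under both scalings (4788 and 2996, and 2051 and 809, by library totals). When every library of a tissue had to pass the fold against every library of the other, 7970 and 3560 genes were left at 4-fold, 2941 and 763 at 16-fold, and 1033 and 127 at 64-fold. By the ratio of means, at 4 times the latter fold there were 891 and 120 genes, and at 16 times it 282 and 11. For the ratio of means, a tissue with no counts was set to 3 counts over its libraries. That is 0.0974 CPM for skin and 0.0472 CPM for the deeper flesh, so a larger fold can be measured for skin genes. As an alternative, every mean below 0.0974 CPM in the lower tissue was raised to 0.0974 CPM, also where a few counts were present. Genes with a few counts had kept their measured mean before, so more than the floor of genes without counts changed. There were then 4825 and 2257 genes at 16-fold and 1652 and 530 at 64-fold. The last pairs were 524 and 81 genes, and 138 and 8. This alternative was chosen after seeing the data. Where every library had to pass the fold, a library with no count was set to 3 counts of its own. That floor is higher, and higher in the shallower skin libraries than in flesh, so it limits the folds of flesh genes more.

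Genes higher in skin, chosen with TMM scaling, held more of the skin counts than genes higher in flesh held of the flesh counts. The gap depended on the fold, at 62.1% and 52.8% for all differing genes and 37.1% and 16.5% at 4-fold. These shares were not computed for genes chosen by library totals. Those higher in skin by at least 16-fold held 22.6% ± 0.147 of skin counts and 0.369% ± 0.022 of flesh counts. Those higher in flesh by at least 16-fold held 6.26% ± 0.0144 of flesh counts and 0.099% ± 0.00455 of skin counts (SD, n = 3). Among the 5344 skin genes of this size 418 reached 100 CPM in skin, against 80 of the 2450 flesh genes in flesh. The genes that did not differ by the test, 34011 in all, held 20.2% ± 0.2 of skin counts and 26.1% ± 0.0139 of flesh counts. In the MT libraries, which took no part in the choice, the same 5344 genes held 21.1% ± 0.114 of skin and 2.05% ± 0.0992 of flesh counts, and the 2450 flesh genes held 5.45% ± 0.0242 of flesh and 0.131% ± 0.00344 of skin counts. The WT share in the lower tissue was part of the choice and the MT share was not, so a higher share in MT is no test of a difference between the lines.

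**Figure D4:**
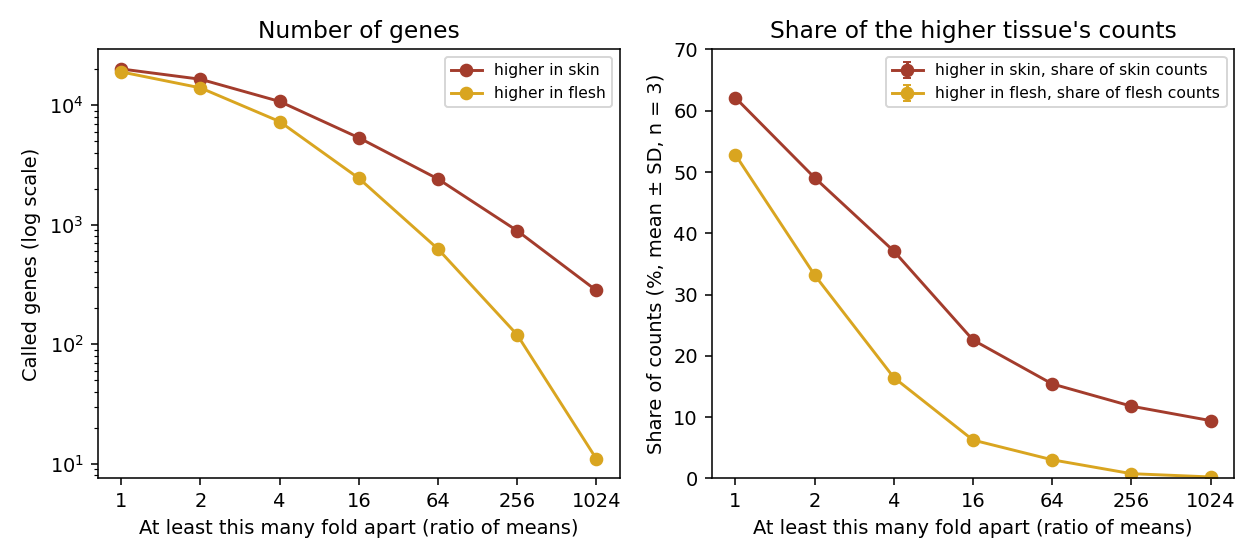
Left, number of genes that passed the edgeR test (log scale) at least a given fold apart, by direction. Right, share of the counts of the higher tissue held by those genes (%, mean ± SD over 3 WT libraries). At 16-fold the points are 5344 and 2450 genes and 22.6% and 6.26% of counts, and the flesh line falls faster on both sides.

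Some genes were seen in a single tissue at the depth available. Of genes with a mean of at least 10 CPM in WT skin, 493 had 0 counts in all 3 WT flesh libraries, where 3 counts over the group would be 0.0534 CPM. Of genes with at least 10 CPM in WT flesh, 173 had 0 counts in WT skin, where 3 counts would be 0.0862 CPM. The flesh libraries together held 56196872 counts and the skin libraries 34821116, and at the summed skin depth 528 skin genes would be expected at 0 in flesh. The 493 genes held 3.49% ± 0.0399 of skin counts, at a median of 27.3 CPM and up to 3692 CPM. The 173 genes held 0.568% ± 0.0131 of flesh counts (SD, n = 3), at a median of 17.3 CPM and up to 429 CPM. In MT, 353 of the 493 again had 0 counts in flesh and 424 again reached 10 CPM in skin, while 70 of the 173 had 0 counts in MT skin and 117 reached 10 CPM in MT flesh. The mean level in the other tissue reached 1 CPM in MT for 14 and 3 of them.

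The direction of the WT differences recurred in libraries of the other line. In MT alone, edgeR's quasi-likelihood test on 67629 genes called 52.4%, with 26.8% higher and 25.5% lower in skin. Of the genes higher in WT skin, 18193 were tested in MT, where 14631 (80.4%) passed in the same direction, 221 in the opposite direction and 3341 did not pass. Of those higher in WT flesh, 17841 were tested in MT, with 13241 (74.2%) in the same direction, 71 in the opposite and 4529 not passing. The median log2 difference of these genes was 2.00 in WT and 1.78 in MT for the skin genes, and -1.49 and -1.36 for the flesh genes. The genes were chosen on the WT values, and the part of that choice in the larger WT medians was not tested. Recurrence was not computed separately for the 47367 genes at the minimum in both WT tissues.

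Genes higher in skin were shorter than genes higher in flesh. Their median length was 1705 bases, against 1995 for genes higher in flesh, 1748 for genes that did not pass and 1797 for all tested genes. Skin took 63.3% of the calls among genes of 500 to 1000 bases, 55.9% from 1000 to 2000, 48.1% from 2000 to 3000 and 38.7% above 3000 bases. Below 500 bases skin took 48.1%, so the trend did not extend to the shortest genes. Weighted by counts, the mean length of the counted genes was 2069, 2056 and 2041 bases in the WT skin libraries and 2251, 2235 and 2249 in the WT flesh libraries. RNA integrity values of the libraries were not used here, and the part of RNA quality in this difference was not tested.

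Along the identifiers, genes with a large skin difference often stood next to each other. For a gene at least 16-fold higher in skin whose next gene was also tested, that next gene was in the same class in 26.5% of 2568 cases, against 7.31% of all tested genes. The share was 17.9% at a distance of 2 genes, 12.3% at 5, 8.33% at 10 and 8.02% at 100. For genes at least 16-fold higher in flesh it was 9.16% of 1114 next genes, against 3.35% of all tested genes, and 3.59% at 10 genes. With untested genes skipped, 201 runs of 3 or more skin genes held 775 genes, which was 14.7% of the skin class inside the numbered blocks and 4.56% of skin counts, and the longest run had 10 genes. In flesh 18 such runs held 58 genes, or 2.39% of that class, with a longest run of 4. The skin class held 5286 genes in these blocks and the flesh class 2430. A larger class gives more and longer runs by itself, and the part of class size was not tested. Reads shared between similar neighbouring genes would also give such runs, and their part was not tested.

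**Figure D5:**
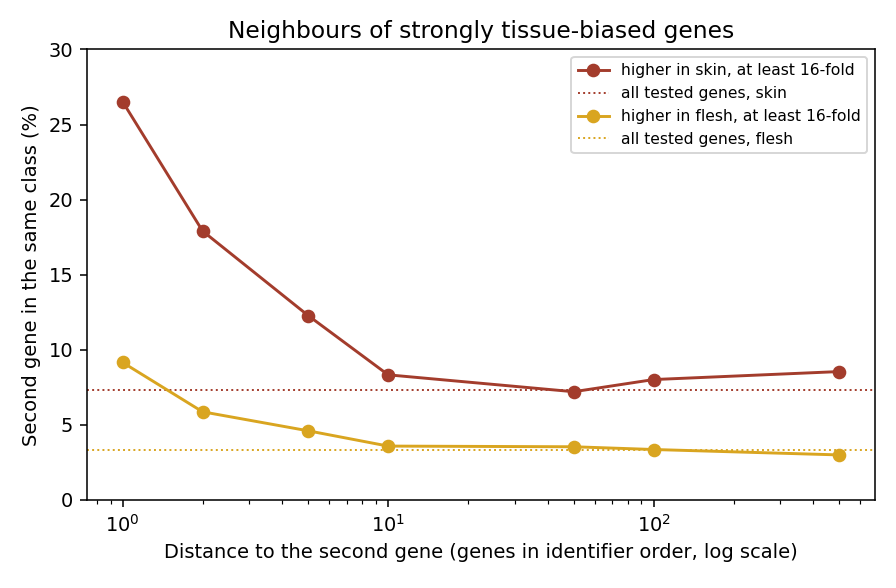
Share of second genes (%, vertical axis) in the same class as a gene at least 16-fold higher in skin or in flesh, against the distance between them in identifier order (log scale). Dotted lines give the share of each class among all tested genes, 7.31% and 3.35%; the skin points start at 26.5% and reach 8.33% at 10 genes.

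The identifier numbers and letters differed little in their calls, with exceptions at numbers 08 and 14. The share of calls that were higher in skin lay between 49.7% and 55.3% for 13 of the 15 numbers, and was 45.9% for number 08 and 42.8% for number 14. Over the letters A to F it ranged from 50.6% to 51.9%. With library totals all 15 numbers had more genes higher in flesh, and numbers 08 and 14 were again lowest, at 33.7% and 29.0%. Shares of counts were less even, since number 06 took 9.59% ± 0.0509 of skin and 6.69% ± 0.0174 of flesh counts (SD, n = 3). Without the 2 leading skin genes it took 6.68% ± 0.0212 and 6.69% ± 0.0174. Number 04 took 10.04% ± 0.0315 of skin and 8.04% ± 0.00671 of flesh counts.

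By most measures, replicates varied more in skin than in flesh. The biological coefficient of variation from edgeR's common dispersion was 30.1% in WT skin and 26.2% in WT flesh, and 32.6% and 23.5% in MT. For genes of 1 to 10 TPM the median SD of log2(CPM + 1) between replicates was 0.27 in skin and 0.19 in flesh, and for those of 100 to 1000 TPM it was 0.08 in both. At 1000 TPM or more the SD was higher in skin for 20 of 43 genes, and its median was 0.068 in skin and 0.074 in flesh. The chi-square per gene between replicate pairs, which grows with depth, was 4.79 to 5.56 in WT skin and 6.20 to 6.96 in WT flesh. Skin libraries were also shallower, and the part of depth in this spread was not tested. In bulk tissue, fewer cells of a type and less RNA per cell cannot be told apart, which holds for all differences given here.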

How the data were processed

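Per the file headers, the authors deposited raw counts per gene and library with a gene length. Of the lengths, 71.5% are multiples of 3. The tools listed by the submitters' processing notes, without saying what each did, were HISAT2 2.0.5, DESeq2 1.40.2 and featureCounts. Not given in the sources used here were genome build, annotation, strand setting and treatment of multiply mapped reads. Per the labels' protocols, RNA was depleted of rRNA, selected on oligo(dT) beads and made into NEBNext Ultra libraries. All 12 sample columns matched a label by name.

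From the counts, CPM, TPM and shares were computed in Python 3.11.15 with scipy 1.17.1. Skin and flesh were tested on the 6 libraries of each line with edgeR 4.0.16 in R 4.3.3 (filterByExpr with a minimum count of 10, TMM, quasi-likelihood test, adjusted p under 0.05), which was tested on simulated data. The SE of a log2 difference is its size divided by the square root of F, an approximation. The difference between lines was tested as an interaction over all 4 groups. Named genes were the 2 most abundant in each tissue that passed the test with non-overlapping libraries, since the identifiers carry no names. Alternatives were other scalings and filters, DESeq2 1.42.0, all 4 groups in a single fit, a replicate block, leaving out each library, and other cutoffs. The comparison, the tests and the lists were chosen with earlier results of these data known. Bounds from 3 counts cover counting error only.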

Additional observations from a re-analysis of the deposited data

Results flagged for a closer look

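The tissue difference was larger in WT than in MT for 6 of the 7 concentration measures, and 2 of the 7 passed the test of that difference after adjustment. For the number of genes holding 90% of the counts it was smaller in WT, at -2020 against -2592 genes. For the 10 most abundant genes it was 3.23 percentage points in WT and 1.92 in MT, a difference of 1.303, and for the 100 most abundant 4.14 and 2.74, a difference of 1.398. With genotype permuted within each tissue, the two-sided exact permutation p was 0.005 for both, the smallest that 400 arrangements give, and 0.03 adjusted by Benjamini-Hochberg over 12 measures. The permutation exchanges the lines within each tissue, so a difference between the lines in a single tissue also enters this p.

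In an edgeR quasi-likelihood fit of all 4 groups with an interaction term, 3 of the 4 named genes had a tissue difference that was not the same in the lines, given as the log2 difference of skin minus flesh in WT minus that in MT. It was 1.01 for Ibat.Brg_v3.06DG005030 (adjusted p = 0.00056), -0.85 for Ibat.Brg_v3.09DG001600 (adjusted p = 6.4e-05) and 1.51 for Ibat.Brg_v3.01BG002710 (adjusted p = 1.6e-07) by the same edgeR test. In MT, 01BG002710 stood at 4133 CPM ± 159 in flesh and 255 CPM ± 1.67 in skin (SD, n = 3), with TMM factors from the MT libraries alone. By share of library totals it took 0.460% of flesh counts in MT against 0.298% in WT, and 0.0229% of skin counts against 0.0405%. By these shares it was higher in flesh and lower in skin than in WT. The leading skin gene Ibat.Brg_v3.06CG006510 did not pass (0.76, edgeR adjusted p = 0.62). Groups of 3 libraries are too small for a search for outlying samples.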

How the results depend on the processing

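The count of differing WT genes, 39103, ranged from 28722 with a minimum count of 50 to 44573 with no filter, and was 38200 with DESeq2; leaving out single libraries gave 35839 to 38571. In MT, leaving out single libraries gave 31162 to 36169 against 35410. Deviations of same-numbered skin and flesh libraries had correlations of 0.0064, 0.0092 and -0.011 across genes. Differently numbered libraries gave -0.014 to 0.0073. With so few libraries these values cannot decide whether the numbers pair the samples, which stays unknown. With the replicate number as a block 35800 genes differed. The 4 named genes kept their direction and passed under every alternative run. Skin minus flesh for detected genes was -1335 at the common depth and -6648 at the libraries' own depths. For genes at 1, 10, 100 and 1000 CPM it was 2958, 1077, 489 and 13.3 with TMM and -2454, -2986, -5 and 8 on TPM, against -1458, -2424, 51.7 and 4.33 with library totals. On TPM the skin-minus-flesh gap for the leading 1, 10, 100 and 1000 genes was 0.461, 4.90, 6.93 and 8.11 points, and without the most abundant gene of each library 0.872, 2.12, 3.11 and 5.84. The number of genes holding 50% of the total differed by -1349 on TPM and -1165 without the most abundant gene, the number holding 90% by -3239 on TPM, and the effective number by -6496 and -4738. In bins of CPM the highest class held 18 skin and 6 flesh genes that differed. Requiring every library past the fold left 2941, 1033, 322 and 82 genes higher in skin in 4-fold steps from 16-fold, and 3560, 763, 127, 11 and 1 higher in flesh in such steps from 4-fold. With means raised to at least the same floor in both tissues, 524 and 138 skin genes were left in the last 2 steps. That alternative was chosen after seeing the data. With library totals 19 flesh genes were left in the last step. From 1 CPM up, 1999 genes were restricted to skin and 1465 to flesh. The lists of 1000 genes shared 32.7%. With library totals 15 of 15 identifier numbers had more genes higher in flesh, against 3 with TMM. The causes were not tested. At this depth absence means under 0.0862 CPM in skin and 0.0534 CPM in flesh.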
